A study of Mus musculus with 29 samples.

Results

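Small proline-rich genes and genes otherwise known from stratified squamous epithelium were followed in the colon of mice with 6 forms of colitis. The 10 genes were Sprr1a, Sprr1b, Sprr2h, Sprr2k, Sprr2d, Sprr3, Spink6, Ly6d, Prss22 and Prss27, taken by gene symbol from a table of 54532 genes. They were selected on their counts in these same mice, each colitis model against its own control, so those comparisons are a description. No p-value is given for them, and the counts of calls further on are not evidence about the genes. None of the 10 is dropped: each is accounted for in every group.

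Small proline-rich proteins are precursors of the cornified envelope, the cross-linked protein shell beneath the membrane of a maturing squamous cell, and transglutaminases join them through glutamine and lysine residues. Skin, oesophagus, forestomach and the anal canal are lined by such stratified epithelium, whereas the colon is lined by a single columnar layer. In the gut, Sprr2a is known as an epithelial gene that responds to bacteria. Spink6 encodes a Kazal-type inhibitor of kallikrein-related proteases, Ly6d a lipid-anchored surface protein of squamous cells and of early B-lineage cells, and Prss22 and Prss27 trypsin-like serine proteases.

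Colon segments from 29 mice in 9 groups were sequenced, and reads were counted per gene. The groups labelled Balb/C were untreated wild-type controls (3 mice), DSS colitis (3 mice given 3% DSS in drinking water for 5 days and culled at day 10), DNBS colitis (3 mice given 3 mg DNBS rectally in 200 μl of 50% ethanol) and IL-10 block (4 mice, labelled IL10 blocking antibody, with 750 μg of anti-IL-10R given intraperitoneally and culled after 4 weeks). Also Balb/C were untreated Rag2-/- controls (3 mice) and untreated TRUC mice (4 mice, Tbx21-/- x Rag2-/-, in which colitis is spontaneous). The groups labelled C57BL/6 Rag1-/- were untreated controls (3 mice), anti-CD40 colitis (3 mice, 50 μg of agonist antibody, culled after 7 days) and T-cell transfer colitis (3 mice given naive CD4 T cells, culled after 6 to 8 weeks; their treatment protocol names Rag2-/- recipients). The labels give no age or sex. The count headers of TRUC mice 4 and 5 differ in form from those of the other TRUC mice, and the labels do not explain them. TRUC, Rag2-/- and Rag1-/- mice all lack their own T and B cells by genotype, and T-cell transfer returns T cells only. In whole colon, a larger share of a cell type and more RNA per cell cannot be told apart.

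Each library held 10725564 to 14977094 gene counts, and levels are given as counts or as CPM (counts scaled to a common library size, with TMM factors). A count of 0 allows up to 3 counts, which is 0.179 to 0.314 CPM in these libraries. All 14 colon epithelial markers were found in every library, so the labelled tissue matched its markers. The genotype labels matched less well. Rag2 counts were 6 to 20 in the controls labelled Rag1-/- and 48 to 99 in anti-CD40 mice, close to those of Rag2-/- controls (15 to 25) and TRUC (57 to 94), while wild-type controls held 0 to 1. T-cell transfer libraries held no Rag2 count and 20 to 33 Rag1 counts, against 0 to 4 Rag1 counts in every other library. TRUC mice, labelled Tbx21-/-, held 26 to 52 Tbx21 counts against 1 to 7 in Rag2-/- controls. Il10 was at 61 to 111 counts in IL-10 block mice and at 1 to 4 in wild-type controls. Gene counts do not show which exons any of these reads came from, and the published methods name C57Bl/6 for wild-type and DSS mice and Il10-/- mice where the labels give Balb/C and an antibody. They also give earlier cull times for DSS and T-cell transfer than the labels do. Genetic background and colitis therefore cannot be told apart where a model and its control differ in background. T-cell transfer and its labelled controls differed in Rag1 and Rag2 counts, so this limit covers every fold change, ratio and call between them. DNBS mouse 11 stood apart in its squamous markers, which are given ahead of the gene values, and DSS mouse 8 and IL-10 block mouse 4 differed from their group mates more than those differed from each other.

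Of the 10 genes, 6 lie in 1 cluster of 17 Sprr genes on chromosome 3 (chr3:92215799-92500493, GRCm38, GENCODE M21), which spans 285 kb. Prss22 and Prss27 are neighbours on chromosome 17, 40.0 kb apart (chr17:23993534-23998100 and chr17:24038144-24045954). Ly6d lies on chromosome 15 (chr15:74762056-74763620) and Spink6 elsewhere. None of the 10 overlaps another annotated gene.

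The Sprr genes share their coding sequence as a repeat of proline codons (CCN), and it is shown here because it defines the family and bears on how far reads can be assigned to 1 copy. Proline codons made up 31.9% of codons in Sprr1a, 42.6% in Sprr2h, 30.9% in Sprr2k, 41.2% in Sprr2d and 20.6% in Sprr3, against a median of 5.27% over 21577 coding genes. Sprr2h ranked 3 and Sprr1a ranked 10 among them for proline. Cysteine codons were also frequent, at 18.5% in Sprr2h and 10.4% in Sprr1a against a median of 2.13%, and lower in Sprr3 at 4.62%. The 4 genes outside the cluster had 2.86% to 7.17% proline codons. The stretch of 27 codons with the most proline codons is printed below for 4 genes, from the GENCODE M21 transcripts (GRCm38), with proline codons in capitals.
Sprr1a coding: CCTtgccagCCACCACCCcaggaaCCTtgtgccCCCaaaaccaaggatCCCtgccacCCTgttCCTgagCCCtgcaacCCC
Sprr2h coding: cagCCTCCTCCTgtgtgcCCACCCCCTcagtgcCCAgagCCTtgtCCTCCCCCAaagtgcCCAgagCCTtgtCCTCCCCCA
Sprr2k coding: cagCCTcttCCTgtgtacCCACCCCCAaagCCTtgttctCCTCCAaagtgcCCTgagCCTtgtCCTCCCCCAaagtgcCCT
Sprr3 coding: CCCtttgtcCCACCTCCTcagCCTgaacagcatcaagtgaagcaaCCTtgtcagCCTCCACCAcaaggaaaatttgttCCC
The Sprr1a stretch lies at chr3:92484543-92484623, minus strand. The Sprr2h stretch lies at chr3:92386668-92386748, plus strand. The Sprr2k stretch lies at chr3:92433381-92433461, plus strand. The Sprr3 stretch lies at chr3:92457431-92457511, minus strand. Of the 27 codons, 16 were proline in Sprr2h, 14 in Sprr2k, 11 in Sprr1a and 10 in Sprr3, where the proline codons were further apart. No stretch of 50 bases in the transcripts of Sprr1a, Sprr1b, Sprr2h, Sprr2k, Sprr3 or any of the 4 genes outside the cluster occurs in another gene's transcripts. Sprr2d shares 4.27% of its 50-base stretches with Sprr2i or Sprr2e, so a few of its reads could belong to those copies.

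The bases just before the transcription start are shown because several Sprr genes were high in the same models. RefSeq (GRCm38.p6) gave promoters for 7 of the 10 genes. Ly6d, Prss22 and Spink6 had no entry. In the 250 bases before the start, on both strands, a TATA box (TATAAA) was found in 6 of the 7 promoters and in 12.4% of 32851 promoters. The AP-1 motif TGANTCA was found in 5 of the 7 and in 6.75% of all promoters. The STAT motif TTCNNNGAA and an NF-kB motif (GGG and TTCC set 3 bases apart) occurred in 0 of the 7, and in 7.02% and 4.65% of all promoters. AP-1 and TATA matches are in capitals below, in sequence that ends at the base before the start.
Sprr1a upstream: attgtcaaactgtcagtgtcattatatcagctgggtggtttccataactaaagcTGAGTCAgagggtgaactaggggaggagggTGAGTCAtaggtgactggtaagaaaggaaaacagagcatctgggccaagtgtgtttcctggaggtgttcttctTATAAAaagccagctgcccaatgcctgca
Sprr2h upstream: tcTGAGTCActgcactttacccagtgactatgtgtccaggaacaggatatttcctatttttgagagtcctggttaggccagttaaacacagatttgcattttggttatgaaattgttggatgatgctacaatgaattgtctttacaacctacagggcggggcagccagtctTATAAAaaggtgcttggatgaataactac
Sprr2k upstream: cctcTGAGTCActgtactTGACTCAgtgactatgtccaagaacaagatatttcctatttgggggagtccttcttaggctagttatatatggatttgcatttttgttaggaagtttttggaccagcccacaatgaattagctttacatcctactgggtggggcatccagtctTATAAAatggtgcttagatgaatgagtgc
Sprr3 upstream: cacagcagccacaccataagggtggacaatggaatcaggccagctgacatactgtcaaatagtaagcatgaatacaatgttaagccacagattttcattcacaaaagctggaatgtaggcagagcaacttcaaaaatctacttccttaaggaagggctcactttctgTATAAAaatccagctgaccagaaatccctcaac
The Sprr1a bases lie at chr3:92485896-92486081, minus strand. The Sprr2h bases lie at chr3:92385485-92385684, plus strand. The Sprr2k bases lie at chr3:92432382-92432581, plus strand. The Sprr3 bases lie at chr3:92458721-92458920, minus strand. Sprr1a is printed without the 14 bases that GENCODE counts as its first exon. Sprr1a and Sprr2k each held 2 AP-1 matches, Sprr2h held 1 at 198 bases before the start, and Sprr3 held none. Prss27 held neither motif. The other Sprr genes with an entry had the AP-1 match in 4 of 8 and the TATA box in 4 of 8. For Sprr2a2 and Sprr2a3, which held neither, the first bases after the listed start were in no GENCODE transcript of the gene. Matches did not follow level. Sprr1b and Sprr2e held both motifs, with at most 7 and 1 counts in any mouse. Sprr2a1, whose counts are uncertain among copies, held neither and had 1113 to 1407 counts in TRUC. Sprr2d, Sprr2h and Sprr2k each held an AP-1 match 193 to 198 bases before the start, so these related copies are not separate cases. A match is a run of letters and does not show binding.

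DNBS mouse 11 stood above all other libraries in most of the 10 defining squamous markers. It was the highest of all 29 libraries for 21 of 41 stratified squamous markers, whereas every other library was highest for 0 to 3. The 10 defining squamous markers summed to 533 CPM in this mouse, to 28.8 and 35.1 CPM in the other DNBS mice and to 8.15 to 67.3 CPM over the other 28 libraries. All 10 had more than 10 counts in mouse 11, against at most 6 of 10 elsewhere. Krt5 and Krt14, keratins of the basal squamous layer, reached 532 and 3079 counts, and the highest counts elsewhere were 15 and 212. Krt4 and Krt13, the keratin pair of inner stratified epithelia, reached 1390 and 2825 counts against at most 32 and 523 elsewhere. Krt1, of the suprabasal epidermis, was at 343 against at most 4, and Ivl, which encodes the envelope protein involucrin, at 16 against at most 1. Trp63 was at 36 counts, or 2.15 CPM, close to the 2.14 CPM of TRUC mouse 3. Krt10 was at 386 and Lor at 232 counts, and their highest counts elsewhere were 119 and 103. Dsg3 was the exception, at 87 counts in mouse 11 and 255 in DSS mouse 8.

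**Figure D1:**
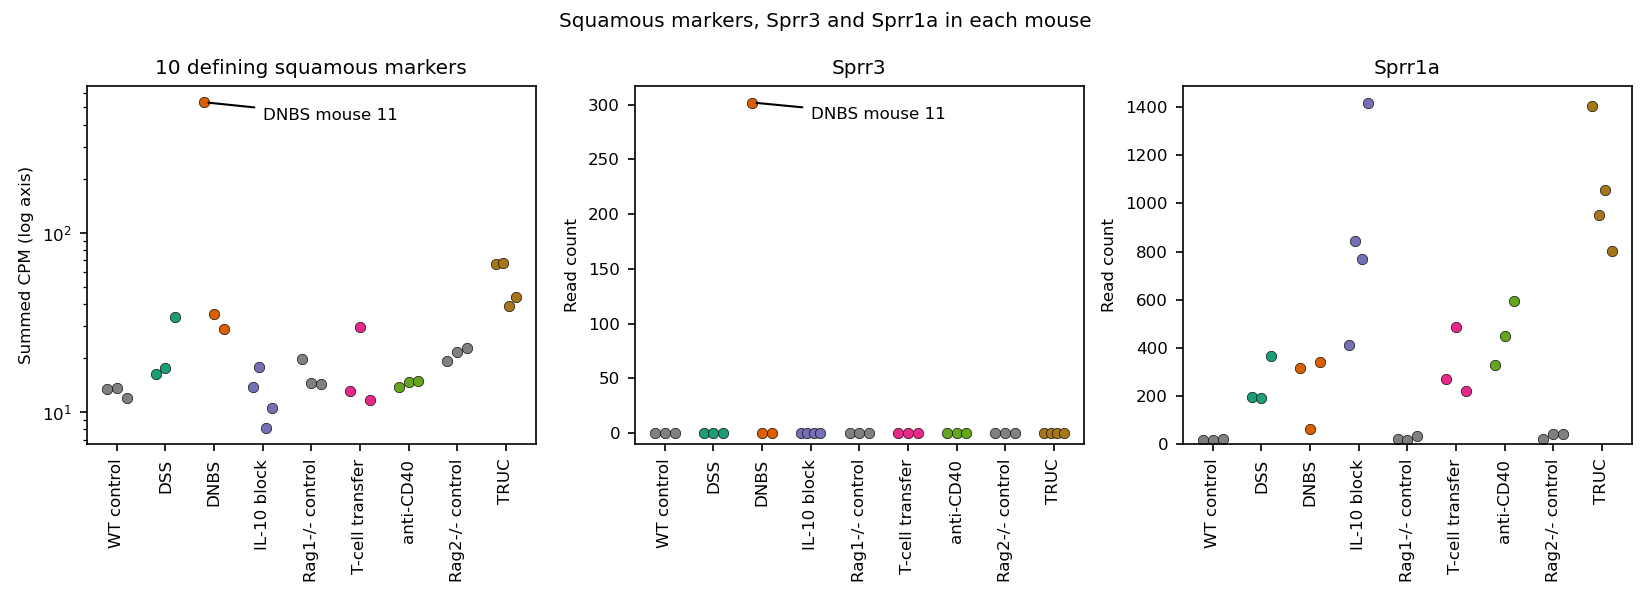
The summed CPM of 10 defining squamous markers (log axis) and the read counts of Sprr3 and Sprr1a, each point 1 mouse in 1 of 9 groups. DNBS mouse 11 stands at 533 summed CPM and at 302 Sprr3 counts with all other mice at 0 Sprr3 counts, while its 318 Sprr1a counts lie among those of the other colitis mice.

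Sprr3, a small proline-rich gene of oesophageal and other wet squamous epithelium, followed that 1 library. It had 302 counts (18.0 CPM) in DNBS mouse 11 and 0 counts in the other 28 libraries, including the other 2 DNBS mice. Without mouse 11 there was no Sprr3 signal in any group. Its level therefore describes 1 mouse and no model. Sprr1b, an epidermal member of the family, had 7 counts in DNBS mouse 11, 1 and 2 counts in TRUC mice 2 and 5, 1 count in T-cell transfer mouse 3 and 0 in the other 25 mice. Only mouse 11 was above the 3 counts that a 0 allows, and Sprr1b was too low to enter the fit.

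Sprr1a, a precursor of the cornified envelope that is also known from injured tissue, was the 1 small proline-rich gene among the 10 that every library contained. Wild-type controls had 18, 16 and 22 counts, Rag2-/- controls 19, 43 and 43, and libraries labelled Rag1-/- control 19, 16 and 33. TRUC mice had 1406, 950, 1055 and 801 counts, and IL-10 block mice 410, 842, 767 and 1418. Every colitis mouse was above every control, the lowest being DNBS mouse 14. DSS mice had 194, 193 and 364 counts and DNBS mice 318, 61 and 340. T-cell transfer mice had 270, 487 and 222 and anti-CD40 mice 330, 448 and 596. The acute chemical models were thus the lowest of the colitis groups and TRUC and IL-10 block the highest. The log2 fold change against the model's own control was 5.90 ± 0.61 (SE) in IL-10 block, 4.98 ± 0.57 in TRUC, 4.35 ± 0.59 in anti-CD40, 3.96 ± 0.59 in T-cell transfer, 3.68 ± 0.60 in DSS and 3.64 ± 0.60 in DNBS. The mean was 87.5 ± 16.8 CPM (SD, n = 4) in TRUC and 84.0 ± 48.0 CPM (SD, n = 4) in IL-10 block, and neighbouring models overlapped at every step of the order down to DNBS (17.6 ± 12.2 CPM, n = 3). Without DNBS mouse 11 the DNBS mean was 16.9 CPM, so Sprr1a did not follow the squamous markers of that mouse.

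**Figure D2:**
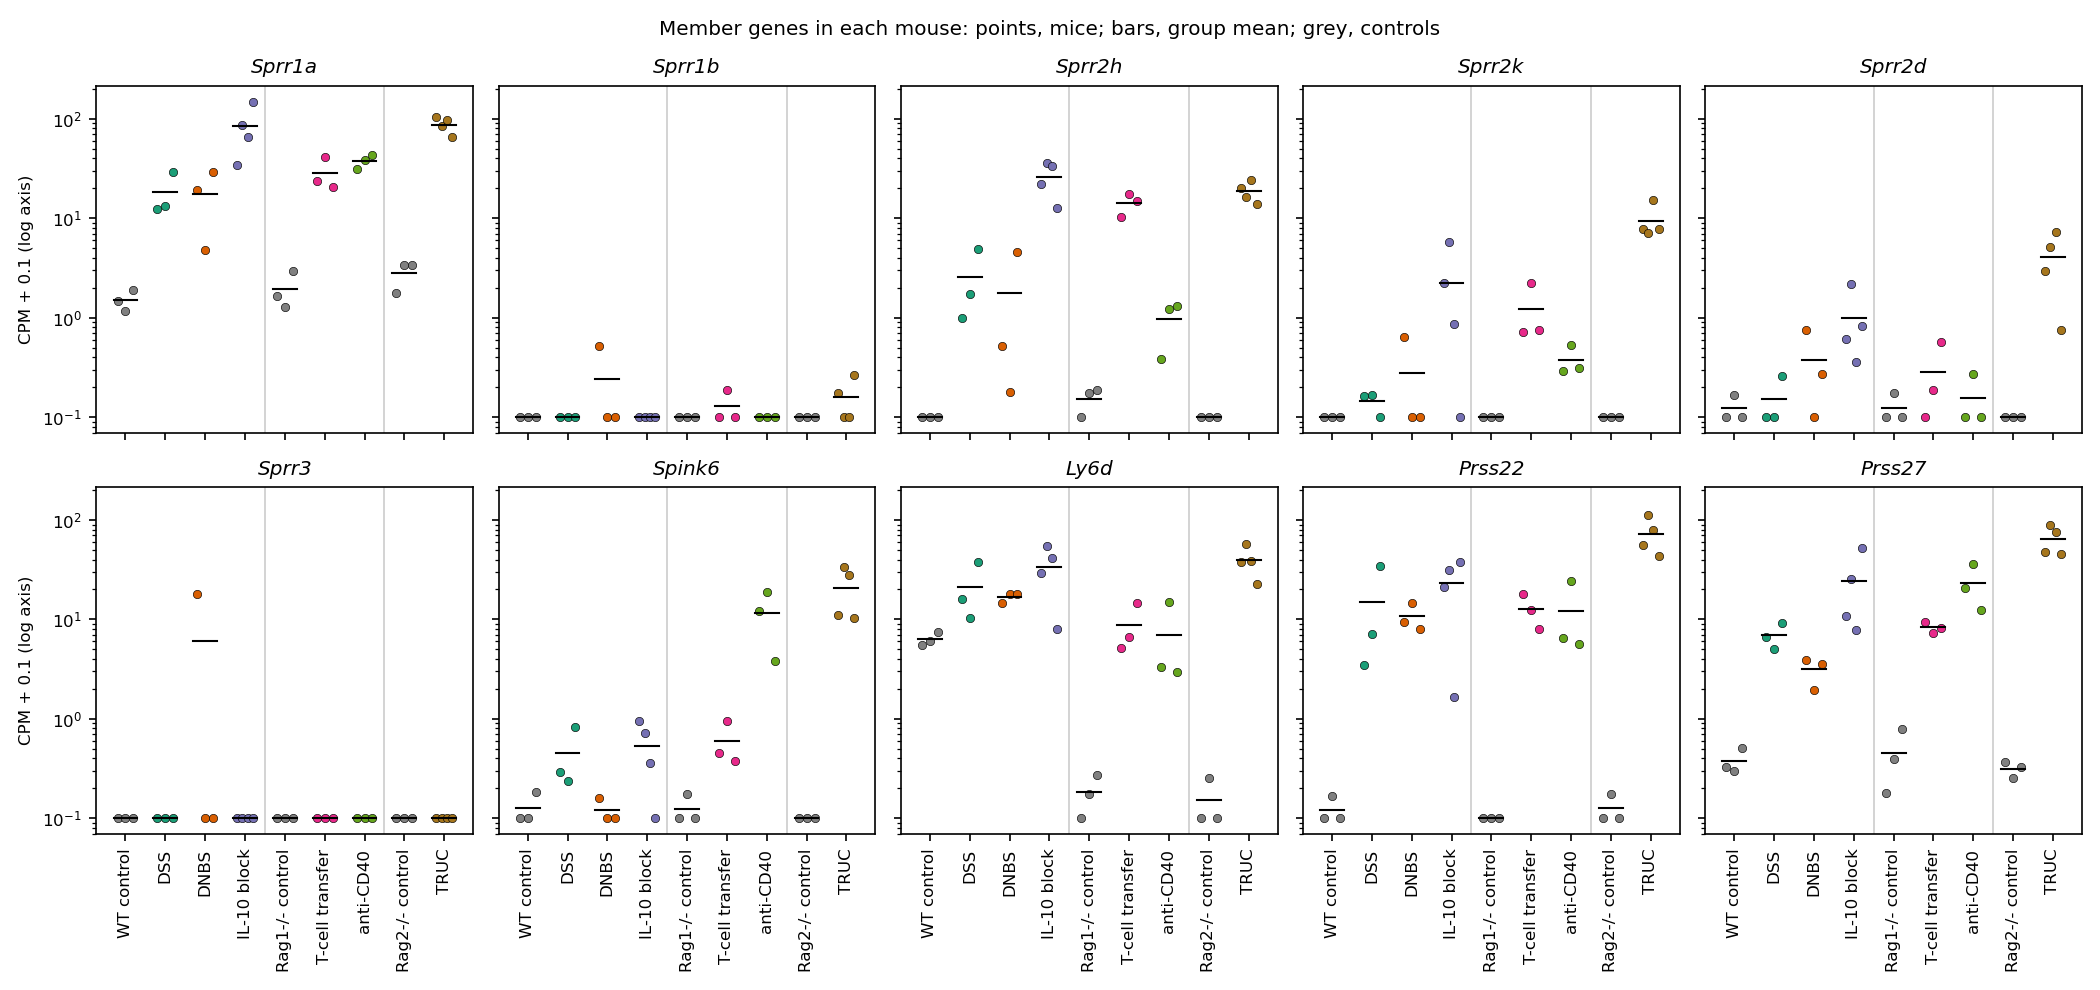
CPM plus 0.1 (log axis) of the 10 genes, with 1 point for each mouse, a bar for the group mean and controls in grey. Sprr1a, Prss22 and Prss27 are above their controls in all 6 models, Spink6 is high only in TRUC (10.3 to 33.4 CPM) and anti-CD40 (3.73 to 18.8 CPM), and Sprr3 is present in 1 DNBS mouse.

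Sprr2h was absent or at 1 count in controls, high in 3 models and low in the other 3. It had 0 counts in all wild-type and Rag2-/- controls and 0, 1 and 1 in libraries labelled Rag1-/- control. IL-10 block mice had 258, 343, 389 and 119 counts, TRUC mice 271, 183, 264 and 168, and T-cell transfer mice 118, 206 and 161. These 3 models overlapped one another and lay above all others. DSS mice had 14, 24 and 60 counts, DNBS mice 7, 1 and 53, and anti-CD40 mice 3, 13 and 17. In DNBS, 1 mouse carried nearly all Sprr2h reads, and it was mouse 16 and not the mouse with high squamous markers. Sprr2h was at least 115-fold higher than control in IL-10 block, at least 77.0-fold in TRUC, at least 10.9-fold in DSS and at least 7.44-fold in DNBS, with the controls set at 3 counts in each library. Against the few control counts of the libraries labelled Rag1-/-, the ratio was 268 (95% counting interval 73.8 to 2220) in T-cell transfer and 17.1 (4.37 to 147) in anti-CD40.

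Sprr2k and Sprr2d, other proteins of the Sprr2 group, were highest in TRUC. Sprr2k had 104, 79, 165 and 95 counts in TRUC and 0 counts in all 9 controls, a level at least 39.0-fold higher. IL-10 block mice had 25, 54, 9 and 0 Sprr2k counts, at least 9.44-fold higher on average but with 1 mouse at 0. Each TRUC mouse was above each mouse of every other group. T-cell transfer mice had 7, 25 and 7 Sprr2k counts, at least 4.70-fold higher, and anti-CD40 mice 2, 5 and 3. DSS mice had 1, 1 and 0. In DNBS the only Sprr2k reads were 9 counts in mouse 11, and without it the group was at 0. Sprr2d had 39, 57, 78 and 8 counts in TRUC, against 0 in Rag2-/- controls, at least 16.4-fold higher. It had 6, 20, 3 and 7 counts in IL-10 block against 0, 1 and 0 in wild-type controls (ratio 34.0, interval 5.73 to 1380). Elsewhere Sprr2d stayed near the floor except in DNBS mouse 11, with 11 counts against 0 and 2 in the other DNBS mice. The low levels of Sprr2k and Sprr2d in DNBS thus came mostly from the mouse that also had high squamous markers.

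Spink6, the protease inhibitor, split the models. TRUC mice had 150, 375, 302 and 126 counts and anti-CD40 mice 129, 219 and 52, whereas no other mouse had more than 10. Its controls held 0 or 1 count. The TRUC level was at least 85.6-fold higher than Rag2-/- controls, and the anti-CD40 ratio to its controls was 414 (interval 73.9 to 16400). T-cell transfer mice had 4, 10 and 3 counts, IL-10 block mice 10, 6, 3 and 0, DSS mice 3, 2 and 9 and DNBS mice 1, 0 and 0. Both groups with high Spink6 lack T and B cells by label and received none, and the untreated groups of that kind were at 0 to 1 count. The defining squamous markers summed to 13.8 to 14.8 CPM in anti-CD40 mice and 14.3 to 19.6 CPM in their controls, and 38.9 to 67.3 CPM in TRUC mice and 19.2 to 22.8 CPM in Rag2-/- controls. The part of squamous cells in the Spink6 values was not tested.

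Ly6d differed among the controls as well as among the models. Wild-type controls had 71, 89 and 90 counts, Rag2-/- controls 0, 2 and 0, and libraries labelled Rag1-/- control 0, 1 and 2. Rag2-/- controls were lower than wild-type controls, at a ratio of 0.00858 (interval 0.00103 to 0.0313). Ly6d was picked on the counts of these same mice, so this difference and its call are also a description. Ly6d was the 1 member called in that comparison, in which 4.86% of all tested genes were called lower. Of 5 B-cell markers (Cd79a, Cd79b, Ms4a1, Pax5 and Jchain), all were found in each wild-type control and their sum was 120 to 399 CPM, against 2 to 4 markers and 0.918 to 1.24 CPM in Rag2-/- controls. These markers were listed after the values had been seen, and their part in the Ly6d difference was not tested. Both control groups are labelled Balb/C but differed in the split of reads among the Sprr2a copies, given further on. Sprr2a2 took 9.65% to 11.8% of them in wild-type controls and 0.0992% to 0.218% in Rag2-/- controls. Genetic background and the lack of B cells therefore cannot be told apart in this Ly6d difference.

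In colitis, Ly6d was high with and without those B-cell markers. TRUC mice had 511, 649, 421 and 275 Ly6d counts while their B-cell markers summed to 1.28 to 1.71 CPM. The ratio to Rag2-/- controls was 727 (interval 201 to 6008). T-cell transfer mice had 58, 77 and 156 counts (ratio 107, 36.3 to 523) and anti-CD40 mice 34, 172 and 40 (ratio 84.9, 28.7 to 415). Both groups overlapped the wild-type controls, and T-cell transfer set against them differed by 0.48 log2, which was not called. IL-10 block mice had 347, 528, 477 and 76 counts, DSS mice 253, 151 and 471 and DNBS mice 241, 231 and 210. Against wild-type controls the log2 fold change was 2.41 ± 0.59 in IL-10 block, 1.77 ± 0.60 in DSS and 1.42 ± 0.60 in DNBS. Without DSS mouse 8 the DSS value was 1.08. B-cell markers summed to 1212 to 2033 CPM in IL-10 block, to 145 to 354 CPM in DSS and to 68.9 to 121 CPM in DNBS.

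The proteases Prss22 and Prss27 were nearly silent in controls and present in every colitis mouse. Prss22 had 1 count in 1 wild-type control, 1 in 1 Rag2-/- control and 0 in the other 7 controls. TRUC mice had 767, 1261, 870 and 527 counts, above every other mouse. IL-10 block mice had 251, 304, 18 and 357 counts, of which mouse 3 was the lowest of all colitis mice. DSS mice had 54, 102 and 426, DNBS mice 156, 189 and 92, T-cell transfer mice 203, 143 and 85 and anti-CD40 mice 68, 285 and 78. Apart from TRUC the models overlapped one another. The ratio to the control was 2683 (481 to 106017) in TRUC, 878 (157 to 34729) in IL-10 block, 546 (97.5 to 21586) in DSS and 426 (76.1 to 16866) in DNBS, and the wide intervals reflect a single control count. It was at least 52.4-fold higher in T-cell transfer and at least 50.4-fold higher in anti-CD40, where no control had a count.

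Prss27 had 1 to 8 counts in every control and 24 or more in every colitis mouse. TRUC mice had 649, 1002, 825 and 555 counts, IL-10 block mice 128, 247, 89 and 496, and anti-CD40 mice 220, 424 and 170. T-cell transfer mice had 107, 85 and 87, DSS mice 103, 73 and 114 and DNBS mice 63, 24 and 41. The DNBS mice were below all other colitis mice. The log2 fold change was 8.17 ± 0.75 in TRUC, 6.39 ± 0.72 in IL-10 block, 6.01 ± 0.71 in anti-CD40, 4.59 ± 0.75 in DSS, 4.52 ± 0.73 in T-cell transfer and 3.43 ± 0.79 in DNBS. DNBS mice 14 and 16 without mouse 11 averaged 2.68 CPM, against 0.280 CPM in wild-type controls.

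Per length of exon, Sprr1a was the highest of the 10 genes in TRUC (109 CPM per kb) and in IL-10 block (104 CPM per kb). In TRUC, Prss22 (55.0 CPM per kb), Ly6d (52.5) and Prss27 (51.4) came next and were close to one another. Ly6d was the highest in DSS (28.6 CPM per kb), DNBS (22.5) and wild-type controls (8.39). Sprr2h was second in T-cell transfer at 19.0 CPM per kb.

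By edgeR's quasi-likelihood test at an adjusted p under 0.05, 8 of the 10 genes were called higher in TRUC and 8 in IL-10 block, where 22.4% and 27.2% of the 18616 tested genes were called higher. There were 5 in DSS (17.7% of tested genes), 4 in DNBS (3.95%), 6 in T-cell transfer (16.1%) and 5 in anti-CD40 (10.9%). These counts follow from how the genes were picked. Of the 10 genes, 9 passed the filter on low counts. In DNBS the 4 were Sprr1a, Sprr2h, Prss22 and Prss27, also without mouse 11, but 2 remained called when wild-type control 1 or 2 was left out. T-cell transfer set against wild-type controls in place of its labelled controls also gave 6 of 10, where 16.9% of tested genes were called higher. Anti-CD40 set against Rag2-/- controls gave 6, against 12.4% of tested genes.

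The models were then set against one another, a contrast in which no control enters. The genes were picked on the counts of these same mice, so these differences and calls are also a description and not evidence about the genes. IL-10 block and DSS mice differed in 5 of the 10 genes, all higher in IL-10 block, where 24.6% of tested genes were called higher. The log2 fold change was 2.21 ± 0.47 for Sprr1a, 3.43 ± 0.70 for Sprr2h and 1.80 ± 0.48 for Prss27. All 4 IL-10 block mice were above all 3 DSS mice in Sprr1a and Sprr2h, whereas for Prss27 the ranges overlapped. Sprr2k and Sprr2d rested on 2 DSS counts each, with ratios of 44.3 (interval 11.9 to 372) and 18.1 (4.67 to 155). Prss22 and Ly6d differed by 0.64 ± 0.71 and 0.65 ± 0.54 log2, which did not pass the test. Without DSS mouse 8, Prss22 differed by 2.14 log2 and was called.

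IL-10 block was also higher than DNBS in 5 genes, against 17.4% of all tested genes. Sprr1a differed by 2.26 ± 0.47 log2, Sprr2h by 4.01 ± 0.74 and Prss27 by 2.96 ± 0.52. Each of these 3 was higher in all 4 IL-10 block mice than in any DNBS mouse. Sprr2k (3.28 ± 1.05 log2) and Spink6 (ratio 18.4, interval 2.93 to 765) overlapped between groups, and Spink6 rested on 1 DNBS count. Without DNBS mouse 11, 4 of the 10 genes were called and Spink6 was not. The count was 3 when IL-10 block mouse 2 or DNBS mouse 14 was left out. DSS and DNBS differed in 0 of the 10 genes by edgeR, where 22.6% of tested genes were called in either direction, with 3 genes at an unadjusted p under 0.05 and 1 call by DESeq2 (Prss27, 1.17 log2 higher in DSS). Without DNBS mouse 16, edgeR called Sprr2h higher in DSS, by 3.11 log2.

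**Figure D3:**
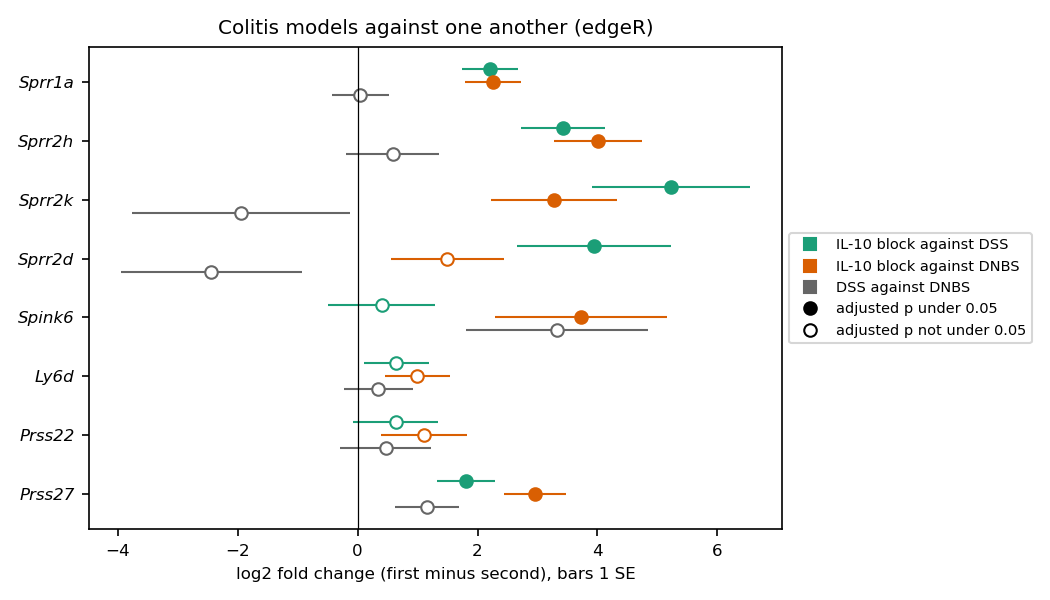
The log2 fold change between 3 pairs of models with bars of 1 SE, for 8 of the 10 genes (Sprr1b was not tested and Sprr3 was present in 1 mouse); filled points had an adjusted p under 0.05. Sprr1a, Sprr2h, Sprr2k and Prss27 lie above 0 in both IL-10 block comparisons, and no DSS against DNBS point is filled. Values of Sprr2k, Sprr2d and Spink6 rest on groups with 3 or fewer counts in at least 1 comparison.

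Of the 11 other Sprr genes in the table, 5 were tested, and 3 of these are Sprr2a copies whose single counts are uncertain. There were 5 called higher in TRUC (22.4% of all tested genes), 4 in IL-10 block (27.2%), 3 in T-cell transfer (16.1%), 2 in DSS (17.7%) and 2 in anti-CD40 (10.9%). The 3 in T-cell transfer were the Sprr2a copies. The IL-10 block count was 2 without mouse 2 or wild-type control 2, the DSS count 1 without mouse 8 or wild-type control 1 or 2, and the anti-CD40 count 1 without labelled control 3. In DNBS 0 were called by edgeR or DESeq2, and 0 had an unadjusted p under 0.05 in edgeR. Their median log2 fold change was 1.79 in TRUC and 0.41 in DNBS, against -0.03 and 0.01 over all tested genes. Sprr2b, between Sprr2a3 and Sprr2d, had 60, 81, 64 and 41 counts in TRUC, against 3, 2 and 5 in Rag2-/- controls. It had 80, 153, 44 and 1 counts in IL-10 block against 0, 1 and 1 in wild-type controls. Sprr2i had 21, 29, 28 and 1 counts in TRUC. Low genes lay between high ones along the cluster, so level did not follow position.

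**Figure D4:**
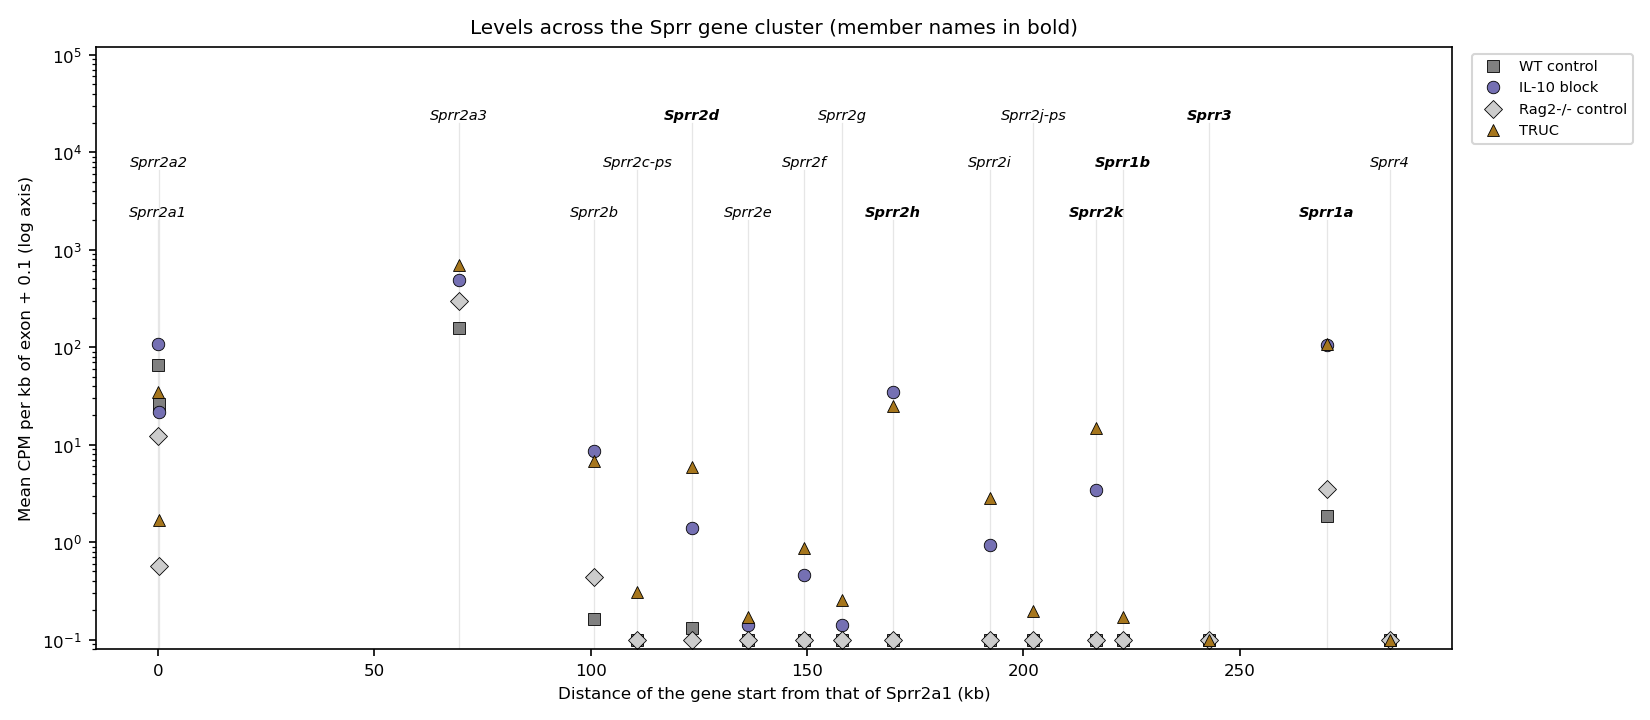
Mean CPM per kb of exon plus 0.1 (log axis) against the distance of each Sprr gene start from that of Sprr2a1 in kb, for wild-type controls, IL-10 block, Rag2-/- controls and TRUC, with the genes followed here in bold. Sprr2a3 and Sprr1a are the highest in TRUC, and Sprr3 and Sprr4 are at the bottom in all 4 groups.

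By the reads given to each copy, Sprr2a3 was the highest Sprr transcript per length in every group (157 CPM per kb in wild-type controls, 701 in TRUC). The 3 Sprr2a copies together were present in every control. Sprr2a1 and Sprr2a2 share 96.3% and 96.5% of their 50-base stretches with other genes, and Sprr2a3 shares 61.1%. The annotated spans of Sprr2a1 and Sprr2a2 also overlap. Counts of 1 copy are therefore uncertain, and the sum of the 3 copies is given. Any reads left uncounted because they fit more than 1 copy would be missing from the sum too. The sum was 894 ± 134 CPM (SD, n = 3) in Rag2-/- controls and 2130 ± 169 CPM (SD, n = 4) in TRUC, and 725 ± 123 CPM (SD, n = 3) in wild-type controls and 1806 ± 628 CPM (SD, n = 4) in IL-10 block. Its log2 fold change was 1.25 ± 0.26 in TRUC, 1.32 ± 0.26 in IL-10 block, 1.40 ± 0.27 in T-cell transfer, 1.10 ± 0.27 in anti-CD40, 0.79 ± 0.27 in DSS and 0.23 ± 0.27 in DNBS, of which the last did not pass the test (edgeR adjusted p = 0.622). In each model the log2 value was below that of Sprr1a.

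How the Sprr2a reads were split among copies differed between sets of groups that each held controls and colitis mice. Sprr2a2 took 9.65% to 11.8% of them in wild-type controls, 5.69% to 10.9% in DSS, 5.04% to 10.5% in DNBS, 3.00% to 4.44% in IL-10 block and 4.79% to 6.65% in T-cell transfer. It took 0.0992% to 0.218% in Rag2-/- controls, 0.196% to 0.272% in libraries labelled Rag1-/- control, 0.156% to 0.340% in TRUC and 0.133% to 0.171% in anti-CD40. The 2 sets of groups did not overlap. T-cell transfer fell with the wild-type controls and its labelled controls with the Rag2-/- mice. Its fold changes of 3.92 log2 for Sprr2a1 and 6.06 log2 for Sprr2a2 therefore compare libraries of different split. Background and colitis cannot be told apart there, nor in the T-cell transfer values of the 10 genes against those controls.

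**Figure D5:**
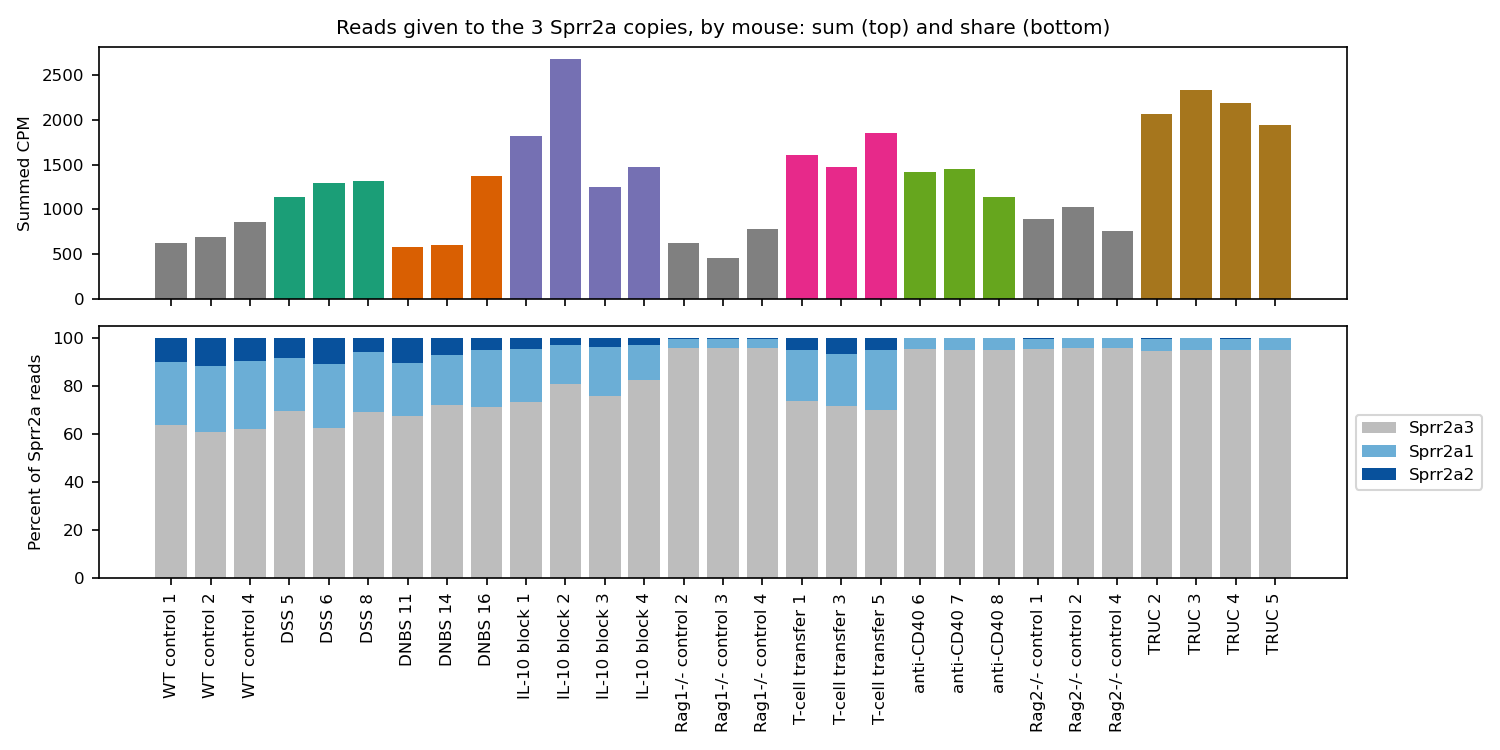
Summed CPM of Sprr2a1, Sprr2a2 and Sprr2a3 in each mouse (top) and the percent of those reads given to each copy (bottom). Sprr2a3 takes 94.6% to 96.0% of reads in Rag2-/- controls, TRUC, anti-CD40 and libraries labelled Rag1-/- control, and at most 82.4% in the other groups.

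Some other squamous genes were higher in colitis and some were lower. Of 41 stratified squamous markers 38 were tested. In TRUC 13 were called higher and 6 lower, so that 34.2% were higher against 22.4% of all tested genes. The lower share was 15.8% against 23.4%. In DNBS 16 were called higher, or 42.1% against 3.95%, and 8 without mouse 11. The other models were near the share of all genes, with 11 higher and 4 lower in IL-10 block (28.9% higher against 27.2%), 8 and 6 in DSS (21.1% against 17.7%), 7 and 3 in T-cell transfer (18.4% against 16.1%) and 5 and 2 in anti-CD40 (13.2% against 10.9%). The median log2 fold change of the markers was 1.45 in DNBS, 0.25 in T-cell transfer, 0.23 in DSS, 0.05 in TRUC and within 0.01 of 0 in IL-10 block and anti-CD40. Krt13 had 523, 516, 250 and 341 counts in TRUC against 21, 12 and 33 in Rag2-/- controls. In those TRUC mice Krt5 was at 2 to 9 counts, Krt4 at 0 to 2, and Ivl and Krt1 at 0, while Krt14 was at 70 to 212 and Trp63 at 4 to 24. Lor was at 15 to 51 counts in TRUC and at 82 to 96 in Rag2-/- controls. Of the 9 defining markers tested, 2 were called higher in TRUC and 1 lower (22.4% and 23.4% of all tested genes). The defining sum was 38.9 to 67.3 CPM in TRUC and 19.2 to 22.8 CPM in Rag2-/- controls. In IL-10 block, where the small proline-rich genes were also high, that sum was 8.15 to 17.9 CPM against 11.9 to 13.5 CPM in wild-type controls. Krt4 and Ivl were at 0 in all 4 IL-10 block mice, while wild-type controls held 1 to 2 Krt4 counts and 0 Ivl counts. Krt13 had 41, 63, 18 and 10 counts in IL-10 block against 6, 5 and 7 in wild-type controls. Of the 9 defining markers tested, 1 was called higher in IL-10 block and 0 lower (27.2% and 26.1% of all tested genes). The part of squamous tissue in the TRUC values was not tested.

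Among the markers called higher in 4 or more models were Grhl3, a transcription factor of barrier formation, Tgm1, the transglutaminase that cross-links the cornified envelope, and Krt6b, a keratin of injured epithelium. Grhl3 rose by 4.27 ± 0.69 log2 in TRUC, 3.08 ± 0.64 in IL-10 block, 3.06 ± 0.65 in T-cell transfer and 2.55 ± 0.66 in DNBS. Tgm1 rose by 3.84 ± 0.77 log2 in TRUC, 2.25 ± 0.83 in IL-10 block, 3.02 ± 0.83 in DNBS and 4.32 ± 0.82 in DSS. The median over the 6 models was 6.75 log2 for Krt6b. Anxa8, an annexin that was abundant in all groups, was called higher in 5 models with a median change of 1.44 log2 over the 6. Tgm3, another transglutaminase, went the other way, with a median of -1.28 log2 and 2 models called lower.

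In the epidermal differentiation complex, the chromosome 3 region in which the Sprr genes lie, S100a8 and S100a9 were called higher in all 6 models. Both encode subunits of calprotectin, a protein of neutrophils and of stressed epithelium, and their median log2 fold changes were 8.57 and 8.81. S100a11 was called higher in all 6 models (median 1.20 log2), S100a14 and S100a16 in 5 each, and S100a6 was lower in 1. Of 51 other genes of that region, 15 were tested. Those called higher were 6 in TRUC (22.4% of all tested genes), 6 in IL-10 block (27.2%), 6 in T-cell transfer (16.1%), 6 in anti-CD40 (10.9%), 7 in DNBS (3.95%) and 4 in DSS (17.7%). The DNBS count was 3 without wild-type control 1 or 2 and 4 without control 4, and the anti-CD40 count was 2 without mouse 7 and 3 without labelled control 3. Tchh, which encodes trichohyalin of the hair follicle and was named after its values were seen, was called lower in 3 models (median -1.26 log2).

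Among 35 relatives of Ly6d in the table, 25 were tested. There were 16 called higher and 3 lower in IL-10 block (27.2% of all tested genes were higher), 11 and 2 in TRUC (22.4%), 10 and 2 in DSS (17.7%), 9 and 3 in T-cell transfer (16.1%), 7 and 2 in anti-CD40 (10.9%) and 4 higher in DNBS (3.95%). The DNBS count was 0 without wild-type control 1 or 2, 1 without control 4 and 2 without DNBS mouse 16, the DSS count 6 without mouse 8, and the anti-CD40 count 3 without mouse 7 and 4 without labelled control 3. Ly6a, a surface marker of interferon-exposed and progenitor cells, was called higher in all 6 models (median 2.85 log2), and Plaur, the urokinase receptor, in 5 (median 2.93 log2). Ly6c1 was called higher in 5 models, and Gml, Gml2 and Ly6i in 4 each. Ly6g6d, named after its values were seen, was called lower in 5 models (median -1.85 log2). Lypd8, an abundant colonocyte protein that binds bacterial flagella, was called higher in 2 models with a median change of 0.25 log2.

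Relatives of the proteases and their inhibitors showed no common direction. Of 35 such genes, 19 were tested, with 3 called higher and 7 lower in TRUC, 8 higher and 3 lower in IL-10 block, 1 higher and 7 lower in DSS, 4 higher and 1 lower in DNBS, 2 higher and 5 lower in T-cell transfer and 3 in each direction in anti-CD40. Klk1, tissue kallikrein, was called lower in all 6 models (median -1.66 log2), and Prss23 in 4. The DNBS count of 4 higher was 0 without any 1 wild-type control and 1 without mouse 11, and the TRUC count of 7 lower was 3 without Rag2-/- control 1 or 2 and 4 without mouse 2 or 3. The DSS count of 7 lower was 4 without wild-type control 4. Of all tested genes 22.4% were called higher in TRUC, 27.2% in IL-10 block, 17.7% in DSS, 3.95% in DNBS, 16.1% in T-cell transfer and 10.9% in anti-CD40. The shares called lower were 23.4% in TRUC, 26.1% in IL-10 block, 16.3% in DSS, 2.21% in DNBS, 14% in T-cell transfer and 10.7% in anti-CD40. St14, which encodes the epithelial protease matriptase, was called higher in 4 models with a median of 0.62 log2, and Prss16 in 4 with 1.89 log2. Among other Spink genes, 3 of 11 were tested, and Spink4, of goblet cells, was called higher in 3 models with a median of 0.35 log2.

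Across the 9 group means of log2 CPM, Pearson's r was taken between each gene and all tested genes, as a description over groups that share controls and libraries. The gene most like Sprr1a was Mif (r = 0.99), then Mlkl (0.99). For Sprr2h they were Mab21l3 and Mrps10 (0.98 each), for Prss22 Nucb2 and Gm9800 (0.99 each) and for Prss27 Clca3b and Lrg1 (0.99 each). Sprr2k was most like Serpinb11 (0.98) and Sprr2d (0.97), and Sprr2d most like Krtap3-1 and Sprr2k (0.97 each). Spink6 was most like Spag16 (0.99) and Ntn5 (0.98), and Ly6d like Slc7a7 (0.96) and Vrk1 (0.94). Sprr3 was most like Serpinb3a and Calm4 (1.00 each), which for Sprr3 rests on DNBS mouse 11. Among the 10 genes, Sprr1a was like Prss27 (0.97) and Prss22 (0.95), and its r with Sprr3 was -0.00367.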

How the data were processed

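The deposited table holds raw read counts per gene for 29 colon RNA libraries (poly-A selected). The submitters' processing notes name Trimmomatic, HISAT2, HTSeq and GRCm38, and the authors' versions and strand setting are not given in the sources used here. The 92 spike-in rows, with a total of 0, were left out. Counts were scaled by TMM and fitted with edgeR 4.0.16 (quasi-likelihood, R 4.3.3, limma 3.58.1) as 1 model over 9 groups, on genes whose mean count over all mice reached 3, and Benjamini-Hochberg adjusted p-values were called under 0.05. The p-values measure only the spread between these mice. CPM used TMM-scaled totals. Ratios carry exact 95% binomial intervals, which cover counting error only, and a count of 0 was read as up to 3 counts.

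The 10 genes and all gene lists were chosen with earlier results of these data known. Named genes were all 10, the 10 defining squamous markers, per list up to 5 genes called in the same direction in 4 or more models and the 3 most abundant, and the 2 genes most alike to each by Pearson's r. Alternatives were other scalings and filters, the 2 groups alone, DESeq2 1.42.0, other controls, a replicate block, each mouse left out and, chosen after seeing the data, the summed Sprr2a copies. The scripts were tested on simulated data. Levels and sequences used pandas 2.3.3, numpy 2.4.6 and scipy 1.17.1. No 2 libraries of a group agreed within counting noise (lowest chi-square per degree of freedom 3.42 over 33 pairs). Results for some listed genes are not reported here.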

Additional observations from a re-analysis of the deposited data

Results flagged for a closer look

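The highest Sprr2k value in TRUC, 15.1 CPM in mouse 4, lay far from the other 3 by Dixon's test. It was the 1 such case among 20 gene and group pairs, and chance gives about 1 in 20.

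The other results are differences between 2 models by a direct test (edgeR). The genes were picked on the counts of these same mice, so the differences are a description. IL-10 block was higher than DSS by 2.21 log2 for Sprr1a, 3.43 for Sprr2h, 5.23 for Sprr2k, 3.94 for Sprr2d and 1.80 for Prss27. It was higher than DNBS by 2.26 log2 for Sprr1a, 4.01 for Sprr2h, 3.28 for Sprr2k, 3.73 for Spink6 and 2.96 for Prss27. The Sprr2k and Sprr2d values against DSS and the Spink6 value against DNBS rest on 1 or 2 counts in the lower group and depend on the prior count.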

How the results depend on the processing

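No called log2 fold change changed sign under the alternatives run. Of those not called, 8 changed sign in at least 1 fit: 5 in DSS against DNBS (Sprr1a, Sprr2h, Sprr2k, Ly6d, Prss22), 2 in DNBS (Sprr2a1, Sprr2a3) and 1 in IL-10 block against DSS (Spink6). Of the log2 fold changes under other settings, 559 kept their side of the threshold, 15 passed it newly and 16 lost it, and with 1 mouse left out these were 550, 3 and 35. The number of squamous markers called higher moved in DSS to 5 under upper quartile scaling and in DNBS to 6 with the 2 groups fitted alone. In anti-CD40 it moved from 5 to 3 under upper quartile scaling, 10 with the 2 groups alone, 9 with DESeq2 and 3 against Rag2-/- controls, and in T-cell transfer to 11 against wild-type controls. Of the 10 genes, DSS against DNBS gave 1 with no filter and 1 with DESeq2, and IL-10 block against DNBS gave 2 with the 2 groups alone and 3 with DESeq2. The cause was not tested. Apart from the swapped controls, the share of all tested genes called was not computed for the other settings, the fits with 1 mouse left out or the replicate block. A move of these counts and a move of the whole test therefore cannot be told apart.

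With 1 mouse left out, the genes called ranged from 8 to 8 in TRUC, 4 to 5 in DSS, 2 to 4 in DNBS, 7 to 8 in IL-10 block, 5 to 6 in T-cell transfer and 5 to 5 in anti-CD40, and between models from 0 to 1 (DSS, DNBS), 4 to 6 (IL-10 block, DSS) and 3 to 5 (IL-10 block, DNBS). Squamous markers ranged from 12 to 14 in TRUC, 3 to 6 in DSS (3 without DSS mouse 8, 4 without wild-type control 2), 6 to 16 in DNBS (6 without wild-type control 2, 7 without control 1, 10 without control 4, 8 without DNBS mouse 11), 7 to 11 in IL-10 block (7 without mouse 2), 4 to 6 in T-cell transfer (4 without labelled control 3) and 2 to 5 in anti-CD40 (2 without labelled control 3 or mouse 7, 3 without mouse 6). Single genes that lost their call included Prss27 in DNBS (without wild-type control 1 or 2), Spink6 in IL-10 block (without wild-type control 1 or 2 or mouse 1 or 2), Ly6d in DSS (without any wild-type control or DSS mouse 8), Sprr2h in DNBS (without any wild-type control or DNBS mouse 16) and Sprr2k in T-cell transfer (without mouse 3).

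Replicate numbers are shared by some groups, but same-numbered mice did not deviate together (r from -0.0812 to 0.0738). With the replicate block, 7 of the 10 genes were called in IL-10 block (Spink6 was lost), 8 in TRUC and 1 in Rag2-/- against wild-type controls. Groups of 3 or 4 mice and control counts of 0 to 3 limit the precision of Sprr2k, Sprr2d, Spink6 and Prss22.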
